A study of Homo sapiens with 8 samples.

Results

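ETS1 binding was mapped by chromatin immunoprecipitation and sequencing (ChIP-seq) in PANC1, a human pancreatic cancer cell line described as epithelial-like. The 409 deposited PANC1 ETS1 peaks, of 24078 peaks in the 7 lists of the series, were all taken and compared with both ETS1 peak lists of DU145, a human prostate cancer cell line described as epithelial. A PANC1 peak was counted as present in a DU145 list when it shared at least 1 bp with an interval of that list. The series has 8 samples in 8 groups, namely ETS1 in each line, ELF1, ELK4, GABPA and JUND in DU145, and an input for each line, which was not analysed here. ETS1 was precipitated in both lines with the same antibody product, from different lots. The labels name no treatment or genetic change for either line, and they give for PANC1 the same culture text as for DU145, which speaks of puromycin only where cells were selected. Each line and factor has 1 sample, so cell line, antibody lot and library cannot be told apart, and there is no replicate check of any difference. The DU145 ETS1 sample has 2 lists, of 9984 and 9306 peaks. The name of the second carries the mark R2, and the labels do not say what this means or how that list was made. No list holds a score or a read count, so the depth behind each peak is unknown.

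ETS1 is the founding member of the ETS family of transcription factors, which bind DNA through a shared domain that recognises a GGAA core. It is phosphorylated by ERK, the last kinase of the RAS/ERK cascade, and this raises its ability to activate transcription, often at sites shared with AP-1 factors such as JUND. GABPA, ELF1 and ELK4 are ETS factors found mainly at promoters of widely expressed genes, and ELK4 is in addition a partner of serum response factor. The title of the series concerns ETS1 as an effector of RAS/ERK signalling in epithelial cells.

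Most PANC1 ETS1 peaks had a counterpart in DU145. Of the 409 peaks, 272 were present in both DU145 lists (66.5%, exact 95% Clopper-Pearson interval 61.7 to 71.1%). A further 37 met the first list only (9.05%, 6.45 to 12.3%) and 17 met the second list only (4.16%, 2.44 to 6.57%). The remaining 83 peaks (20.3%, 16.5 to 24.5%) met neither. These shares depend on how a match is defined. With centres required to lie within 200 bp, 30.6% of peaks were in both lists and 41.6% in neither, and with the earlier 50% of the lines of each DU145 list, 52.1% were in both and 34.7% in neither. The intervals in brackets, like all those below, cover counting error only and do not describe variation between cultures. Seen from DU145, PANC1 peaks met 302 peaks of the first list (3.02%) and 289 of the second (3.11%). The DU145 lists are far longer than the PANC1 list, so neither share compares the number of binding sites in the 2 lines.

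The peaks without a counterpart were concentrated in one place. Of the 83 peaks in neither list, 42 (50.6%, 39.4 to 61.8%) lay on the short arm of chromosome 6 between 26000000 and 31000000 (hg19), beside 21 of the 272 peaks in both lists (7.72%, 4.84 to 11.6%). Inside this stretch, which was set apart because earlier results had shown it to be dense in PANC1 peaks, 27.6% of 76 peaks were in both DU145 lists (18 to 39.1%) and 55.3% in neither (43.4 to 66.7%). Outside it, 75.4% of 333 peaks were in both (70.4 to 79.9%) and 12.3% in neither (8.98 to 16.3%). With centres within 200 bp the shares in both were 10.5% inside and 35.1% outside, and those in neither 71.1% and 34.8%. The share in both was lower inside the stretch than outside as counted here and under each of 6 other ways of counting.

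**Figure D1:**
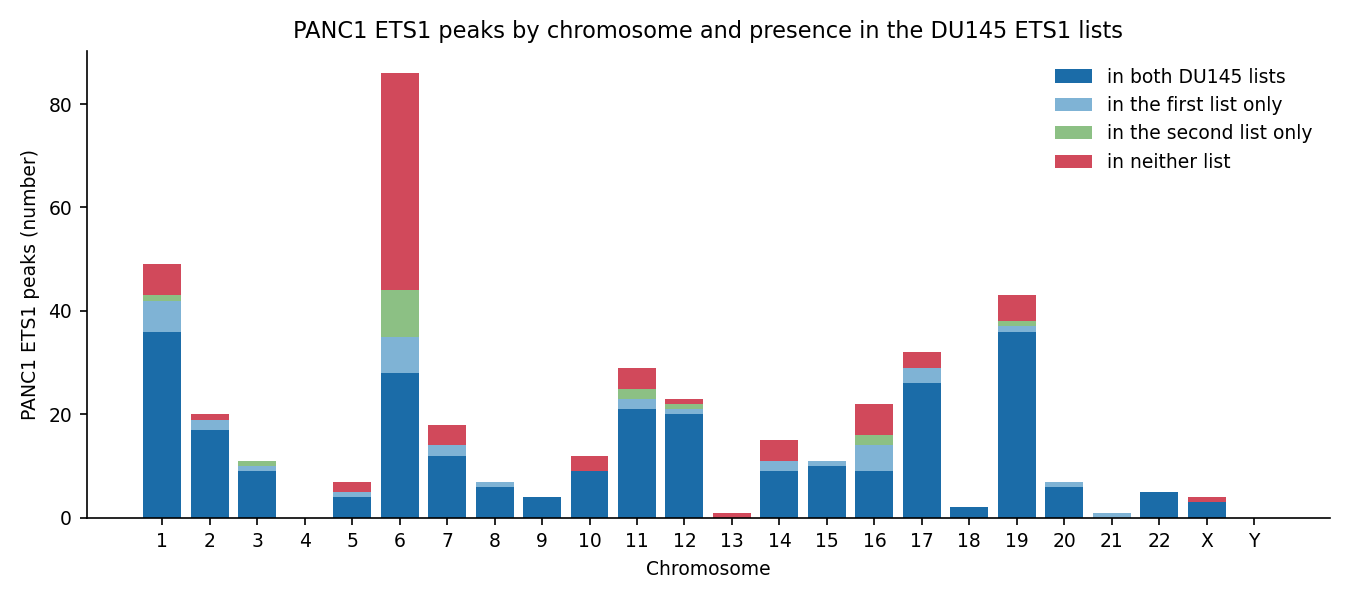
Number of PANC1 ETS1 peaks on each chromosome (bars), coloured by presence in both, 1 or neither of the DU145 ETS1 lists (1 sample per line). Chromosome 6 holds 86 peaks, 42 of them in neither list, while on chromosomes 1, 17 and 19 most peaks were in both.

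By chromosome, the PANC1 list had 49 peaks on chromosome 1, 43 on chromosome 19, 32 on chromosome 17 and 29 on chromosome 11, next to 86 on chromosome 6. On chromosome 19, 36 of 43 peaks were in both DU145 lists and 5 in neither. On chromosome 17 the counts were 26 and 3, and on chromosome 12, 20 of 23 peaks were in both. Chromosome 16 stood lowest among chromosomes other than 6 with at least 10 peaks, with 9 of 22 in both lists (40.9%), 5 in the first only, 2 in the second only and 6 in neither. Chromosome 14 followed, with 9 of 15 in both and 4 in neither. On 8 chromosomes (3, 8, 9, 15, 18, 20, 21 and 22), with 48 PANC1 peaks in all, every peak met at least 1 DU145 list. Chromosomes 4 and Y had no PANC1 peak, where a count of 0, taken as up to 3 counts, allows up to 0.733% of the list each, while the DU145 lists held 286 and 268 peaks on chromosome 4 and 9 and 8 on Y.

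Outside the stretch, chromosome 6 had 10 PANC1 peaks, and none of them lacked a DU145 counterpart. Of these, 7 were in both lists, among them the peak from 44214828 to 44215328, which also met a JUND peak. Of the 10 peaks, 3 lay close together between 74224982 and 74230667. In that group, the peak from 74230169 to 74230667 was in both lists and met JUND, and its 2 neighbours were in the second list only. The peak from 132272037 to 132272534 met a first-list interval, and the nearest second-list peak lay 322542 bp away.

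The stretch itself is known, as general background on the human genome, for the main cluster of histone genes and for many transfer RNA (tRNA) genes, with the class I genes of the major histocompatibility complex near its far end. Its PANC1 peaks began at 26027183 and ended at 30710795. Of the 76, 29 lay between 26 and 27 Mb, 28 between 27 and 28 Mb, 16 between 28 and 29 Mb, none between 29 and 30 Mb and 3 between 30 and 31 Mb. In these 5 bins of 1 Mb, in the same order, the first DU145 list had 20, 16, 17, 7 and 24 peaks and the second had 24, 25, 21, 5 and 27. The DU145 lists thus had peaks throughout, and their highest bin was the last, where PANC1 had 3.

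The composition of the classes also changed along the stretch. Between 26 and 27 Mb, 12 of 29 peaks were in both lists and 13 in neither. Between 27 and 28 Mb the counts were 6 and 17 of 28, and between 28 and 29 Mb they were 2 and 12 of 16. The 3 peaks between 30 and 31 Mb went the other way, with 1 in both lists, 2 in the first only and none in neither. Of the 84 first-list peaks in the stretch, 27 met a PANC1 peak (32.1%, 22.4 to 43.2%), against 2.78% of first-list peaks elsewhere. For the second list the values were 28 of 102 (27.5%, 19.1 to 37.2%) and 2.84%. Per DU145 peak, overlap with PANC1 was thus higher in the stretch than elsewhere, while per PANC1 peak it was lower. The stretch holds 18.6% of the PANC1 list, beside 0.841% of the first DU145 list and 1.1% of the second. As it was set apart for its density of PANC1 peaks, these 2 contrasts describe that choice and are no separate result.

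**Figure D2:**
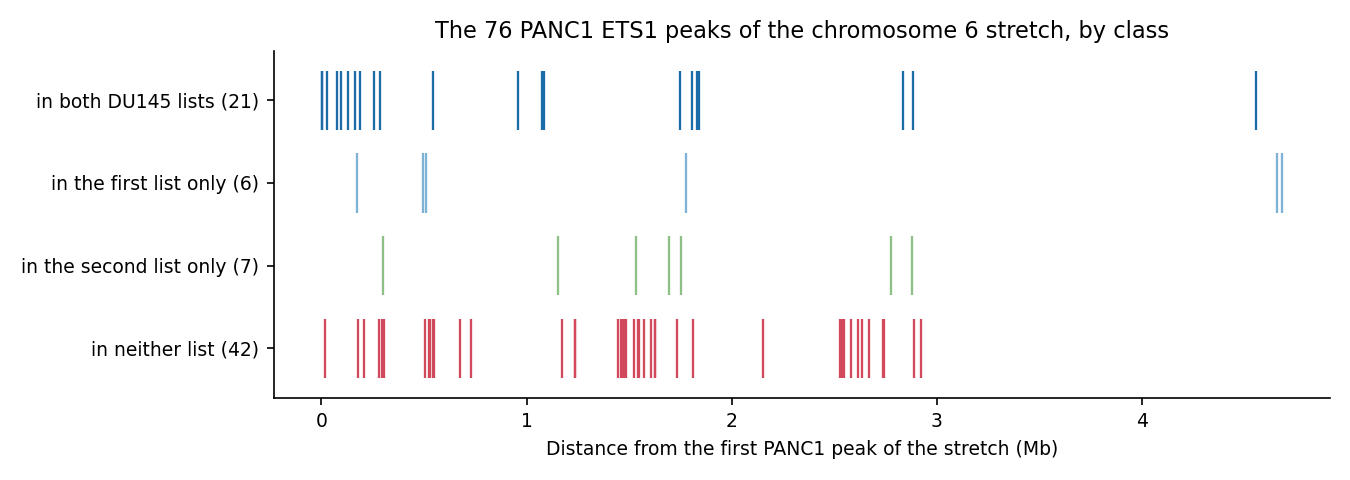
Positions of the 76 PANC1 ETS1 peaks of the chromosome 6 stretch, as distance from the first of them (Mb), in 1 row per class with the number of peaks in brackets. Of the 21 peaks in both lists, 12 lie in the first 1 Mb bin of the stretch, and the 42 peaks in neither list all lie in the first 3 bins.

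Neighbouring PANC1 peaks in the stretch were separated by a median of 17022 bp (lowest 2336 bp, highest 1634526 bp). Joined where the gap was under 100 kb, 69 of the 76 peaks (90.8%) fell into 5 runs. The run from 26027183 to 26330840 held 18 peaks, of which 10 were in both lists and 6 in neither. The run from 26521292 to 26577565 held 8, of which 1 was in both and 5 in neither. The run from 27100502 to 27266193 held 6, with 2 in both and 3 in neither. The run from 27473380 to 27870698 was the longest, with 22 peaks, of which 4 were in both and 14 in neither. The run from 28556994 to 28950115 held 15, with 2 in both and 11 in neither. Only the first of these 5 runs had more peaks in both lists than in neither.

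At a gap under 20 kb, 3 groups of PANC1 peaks in the stretch met no DU145 ETS1 peak at all. These were 5 peaks from 27473380 to 27513826, 3 peaks from 27636103 to 27656415 and 3 peaks from 28556994 to 28575149. Across the 40.4, 20.3 and 18.2 kb that they span, both DU145 lists were empty. Other groups were largely shared. Of 4 peaks from 26027183 to 26056706, 3 were in both lists and 2 of the 4 also met JUND. Of 4 peaks from 27834955 to 27870698, 3 were likewise in both.

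The 7 peaks of the stretch outside those wide runs were 3 in neither list, 2 in both and 2 in the first list only. The peaks from 26987779 to 26988276 and from 30584642 to 30585137 were in both lists, and they were the 2 peaks of the stretch that met a GABPA peak. The peak from 26758460 to 26758950 lay farthest from DU145 ETS1 of all peaks in the stretch, at 98157 bp. JUND was met by 5 peaks of the stretch, of which 4 were in both lists, and the other, from 30710296 to 30710795, was in the first list only. No peak of the stretch met ELK4 or ELF1. On the same limit of 3 counts, 0 of 76 peaks allows a share of up to 3.95%. Over all 409 PANC1 peaks the shares were 3.91% for ELK4 and 1.22% for ELF1, and outside the stretch 4.8% (2.77 to 7.69%) and 1.5% of 333. The ELK4 share outside the stretch lies above that limit, and the ELF1 share below it. The exact interval for 0 of 76 reaches 4.74% and overlaps that for ELK4 outside. The ELK4 list held 4 peaks in the stretch and the ELF1 list 1, so few could be met there. Whether the stretch differs in ELK4 or ELF1 was not tested.

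Runs of neighbouring peaks were also found outside the stretch, and there a larger share of run peaks than of other peaks lacked a counterpart. Of all 409 peaks, 87 (21.3%) lay in 21 runs of at least 3 peaks with gaps under 20 kb, 11 of them in the stretch and 10 outside. With gaps under 5 kb there were 8 such runs in all. Outside the stretch, peaks in runs were in neither list in 13 of 39 cases (33.3%, 19.1 to 50.2%) and in both in 15 (38.5%, 23.4 to 55.4%). Peaks outside the stretch and in no such run were in neither list in 28 of 294 cases (9.52%, 6.42 to 13.5%) and in both in 236 (80.3%, 75.3 to 84.7%). Inside the stretch the 2 kinds were closer, with 28 of 48 peaks in runs (58.3%) and 14 of 28 other peaks in neither list. In both lists were 27.1% of the 48 and 28.6% of the 28. Peaks of a run are neighbours and not independent of each other, so these intervals are too narrow.

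The longest run outside the stretch lay on chr14:21081576-21151771, with 7 peaks over 70.2 kb. Of these, 2 were in both DU145 lists, 1 in the first only and 4 in neither. On chr11:59318130-59334124, 3 of 4 peaks were in neither list and 1 in both. On chr16:3200615-3207763, 2 of 3 peaks were in neither list, the third met the second list only, and the first list had no peak across the run. Chromosome 10 from 17271158 to 17277475 had 2 of 3 in neither. These 4 runs account for 11 of the 13 run peaks outside the stretch that lacked a counterpart. The others were 1 of 4 peaks on chr5:180600495-180649574 and 1 of 6 on chr19:39881735-39936435.

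In the run on chromosome 19, 5 of the 6 peaks were in both lists and 5 met a peak of another DU145 factor. Its single unmatched peak, from 39921771 to 39922270, met a JUND peak and lay 2585 bp from the nearest DU145 ETS1 peak. In the remaining 4 runs outside the stretch, every peak met at least 1 DU145 list. They lay on chr1:28832238-28838771, on chr12:125406045-125424559, on chr16:2201471-2205422 and at the group near 74 Mb of chromosome 6 described above. With gaps under 100 kb, 3 peaks on chr11:65190325-65274989 also formed a run. By general knowledge of the genome this is the place of NEAT1 and MALAT1, 2 long non-coding RNAs retained in the nucleus. All 3 met another DU145 factor, 2 were in both ETS1 lists and the peak from 65274492 to 65274989 was in the first list only.

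How far unmatched peaks lay from DU145 binding separated near misses from isolated sites. For the 83 peaks in neither list, the gap to the nearest DU145 ETS1 peak had a median of 15000 bp (lowest 33 bp, highest 485000 bp, to 3 significant digits). Only 7 of the 83 lay within 1 kb of a DU145 peak, 23 within 5 kb and 49 within 20 kb. Inside the stretch the median was 14600 bp and the highest 98200 bp. Outside it the median was 17800 bp, and 12 of 41 peaks lay 100 kb or more from any DU145 ETS1 peak. The closest of all were a peak on chr11:35160445-35160937, 33 bp from a first-list interval, and one from 59327481 to 59327955 on the same chromosome, 47 bp from a second-list window.

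**Figure D3:**
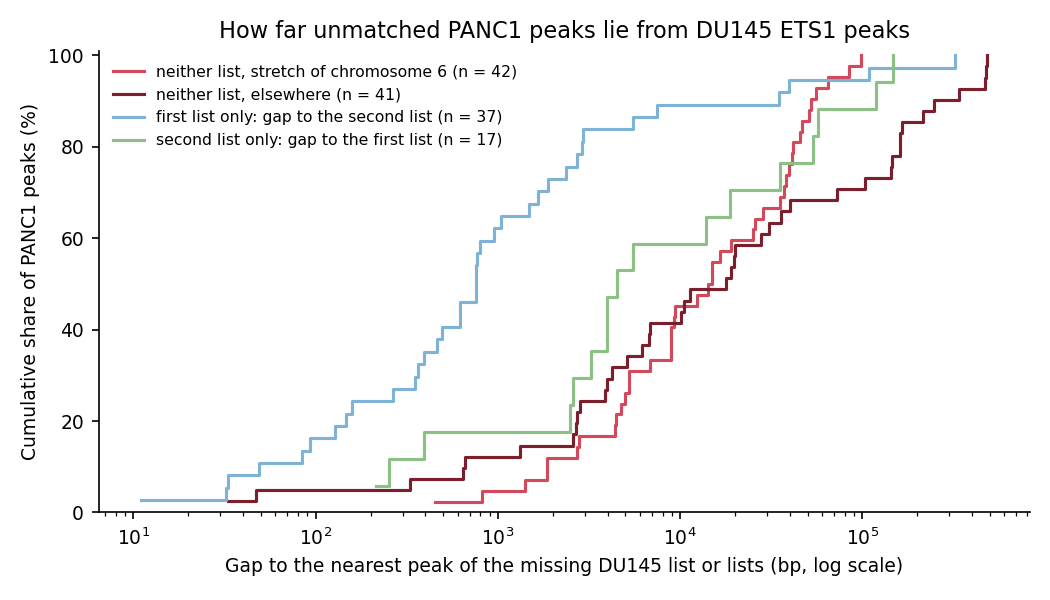
Cumulative share of unmatched PANC1 ETS1 peaks (%) against the gap to the nearest peak of the DU145 list or lists they do not meet (bp, log scale), 1 line per class. The line for the first list only rises earliest, with a median of 757 bp, and 12 of 41 peaks in neither list outside the stretch lie past 100 kb, against 2 peaks in each single-list class and none in the stretch.

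The 10 unmatched peaks farthest from DU145 ETS1 outside the stretch were spread over 7 chromosomes. The farthest lay on chr2:235404447-235404939, with a gap of 485 kb. It was followed by chr1:91966360-91966843 (478 kb) and chr17:70118663-70119163 (469 kb). Chromosome 7 had 3 of the 10, from 57528968 to 57529468 (341 kb), from 93386379 to 93386872 (246 kb) and from 8466596 to 8467092 (164 kb). Chromosome 16 had 2, from 14379627 to 14380103 (214 kb) and from 31927471 to 31927971 (161 kb). The last 2 were on chrX:55187368-55187858 (160 kb) and on chr10:132081070-132081563 (145 kb). None of the 10 belonged to a run of 3, and the peak on X was the only one to meet another DU145 list, that of GABPA.

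The 2 classes present in a single DU145 list cannot be compared on equal terms. The first list holds intervals of varying length (median 1173 bp, up to 13707 bp), while the second list and the PANC1 list hold windows of at most 501 bp. Of the 37 PANC1 peaks in the first list only, 30 (81.1%, 64.8 to 92.0%) met a first-list interval that itself overlapped a second-list window elsewhere along its length. The first-list intervals met had a median width of 2240 bp, and the median gap to the second list was 757 bp, with 23 of 37 within 1 kb. The largest gap was 323000 bp. These peaks were thus mostly at sites that both DU145 lists hold, but so are first-list intervals in general. Of all 9984 intervals of the first list, 8183 overlap a second-list window. Of the 17 peaks in the second list only, 1 met a window that overlapped a first-list interval, and their median gap to the first list was 4470 bp. A peak that misses a first-list interval cannot meet a second-list window lying wholly inside it. The contrast between 30 of 37 and 1 of 17 is therefore in part set by how the classes are defined. Of all 9306 second-list windows, 8224 overlap a first-list interval.

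Line order also differed between the classes, although no source says what it stands for. PANC1 peaks in both lists mostly met DU145 peaks in the earlier lines. The median line number of the second-list window they met was 1055 of 9306, and 83.8% of these windows stood in the earlier 50% of the lines. For the first list the values were 1245 of 9984 and 82.4%. DU145 peaks that the 2 DU145 lists share stand early in general, though less so, with 4640 of 8224 such windows of the second list (56.4%) and 4912 of 8183 such intervals of the first in the earlier 50%. Of the first-list intervals met by the first-only class, 75.7% were in the earlier 50%. The 17 second-list windows met by the second-only class were all in the later 50% of the lines, with a median at the percentile 82.1. Windows of the second list that have no first-list counterpart are late in general, with 1.2% of 1082 in the earlier 50%. For the 21 peaks of the stretch in both lists, 81.0% of the second-list windows met were in the earlier 50%, beside 84.1% elsewhere. For the first list the shares were 66.7% of 21 and 83.7% of 251.

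The PANC1 list is grouped by chromosome, and line order was read within each. Outside the stretch the share in both DU145 lists was 79.0% (71.8 to 85.1%) in the earlier lines of a chromosome and 72.2% (64.9 to 78.6%) in the later lines. In the stretch it was 43.9% of 41 earlier peaks (28.5 to 60.3%) and 8.57% of 35 later peaks (1.8 to 23.1%). Of the later peaks of the stretch, 71.4% were in neither list (53.7 to 85.4%). The widths of PANC1 windows did not separate the classes, with medians of 497, 496, 497 and 495 bp for both, first only, second only and neither. As 64 windows share the greatest width of 501 bp, the list could not be ranked by width.

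Where a PANC1 peak was in both lists, its centre was compared with that of the DU145 peak it met. The centre of the PANC1 window lay a median of 112 bp from that of the second-list window, 28.3% lay within 50 bp and 70.6% within 200 bp. In the stretch the median distance was 74 bp for 21 peaks, beside 118 bp for 251 elsewhere. Against the wider intervals of the first list the median was 157 bp, and here the order was the other way, with 256 bp in the stretch and 154 bp elsewhere. An overlap of windows this narrow itself keeps their centres within about 501 bp. The counts within 50 and 200 bp had no baseline, so whether centres lay closer than overlap alone would place them was not tested.

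Peaks of the other DU145 factors marked the classes unequally. JUND, the AP-1 factor, was met by 45 of the 272 PANC1 peaks in both lists (16.5%, 12.3 to 21.5%) and by 6 of 37 in the first list only (16.2%, 6.19 to 32.0%). It was met by 1 of 17 in the second list only and by 1 of 83 in neither (1.20%, 0.0305 to 6.53%). Over all DU145 ETS1 peaks the JUND share was 4.44% of the first list and 4.41% of the second. At 1 bp, the intervals of the shared and first-only peaks lie above these DU145 shares, while those of the second-only and unmatched peaks include them. All peaks not in both lists together stood at 5.84% at 1 bp (2.55 to 11.2%). With centres within 200 bp, JUND was met by 12 of 125 shared peaks (9.6%, 5.06 to 16.2%). Of the 284 others, 18 met it (6.34%, 3.8 to 9.83%), and the intervals overlap. No DU145 background was computed at 200 bp, so 9.6% cannot be set against 4.44% and 4.41%. Shared PANC1 peaks met early DU145 lines, as given above, and shared sites count on both sides. The part of line order in the JUND share was not tested.

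Of the 63 PANC1 peaks that met GABPA at 1 bp, 62 were in both lists. GABPA was met by 62 of 272 (22.8%, 17.9 to 28.2%), by none of the 54 peaks in a single list and by 1 of 83 in neither list. The DU145 background was 23.7% for the first list and 24.6% for the second, both inside the interval of the shared peaks. In the stretch GABPA was met by 2 of 21 peaks in both lists (9.52%, 1.17 to 30.4%), and elsewhere by 60 of 251 (23.9%, 18.8 to 29.7%). How rarely GABPA was met in the other classes varied with the matching rule, which also changes the peaks that fall in each class. With intervals within 500 bp, GABPA was met by 66 of 290 peaks in both lists (22.8%) and 1 of 119 others (0.84%). With centres within 200 bp, GABPA was met by 27 of 125 peaks in both lists (21.6%) and 13 of 284 others (4.58%). With 500 bp intervals around centres the counts were 57 of 235 and 6 of 174.

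ELK4 was met by 15 of the 272 shared peaks (5.51%, 3.12 to 8.93%), 1 peak in the second list only and none of the peaks in the first only or in neither. Its background was 2.77% and 2.65% of the DU145 lists. With centres within 200 bp, ELK4 was met by 3 of 125 shared peaks (2.4%) and 3 of 284 others (1.06%), and no background was computed at that setting. ELF1 was met by 5 shared peaks (1.84%, 0.599 to 4.24%) and by no other, against 2.36% and 2.40%. At least 1 of the 4 factors was met by 103 of the 272 shared peaks (37.9%, 32.1 to 43.9%) and by 2 of 83 in neither list (2.41%, 0.293 to 8.43%). The same share over all DU145 ETS1 peaks was not computed, so whether 37.9% differs from DU145 peaks in general is unknown.

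**Figure D4:**
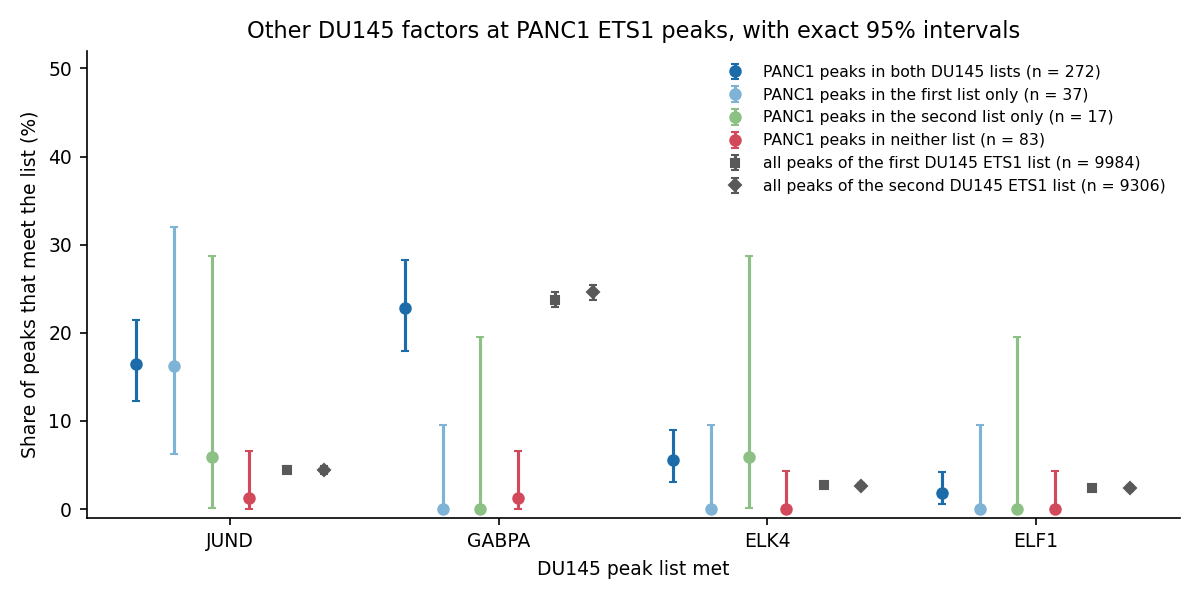
Share of peaks (%) that meet a DU145 peak of JUND, GABPA, ELK4 or ELF1, for PANC1 ETS1 peaks of each class (circles) and for all peaks of the DU145 ETS1 lists (grey squares and diamonds), with exact 95% intervals for counting error. JUND stands at 16.5% for shared PANC1 peaks against 4.44% and 4.41% for the DU145 lists, while GABPA stands at 22.8% against 23.7% and 24.6%.

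The same overlap was read from the lists of the other factors, whose own overlap with DU145 ETS1 differs widely. Of all 1308 JUND peaks, 26.1% (23.8 to 28.6%) were in both DU145 ETS1 lists. Of the 52 JUND peaks that met a PANC1 peak, 47 were (90.4%, 79.0 to 96.8%), and of the other 1256, 23.5% (21.2 to 25.9%). For GABPA the shares were 96.8% of 63 peaks that met PANC1 (89.0 to 99.6%) and 90.5% of 2415 that did not (89.3 to 91.7%). For ELK4 they were 14 of 16 (87.5%, 61.7 to 98.4%) and 70.7% of 321 (65.4 to 75.6%). All 5 ELF1 peaks that met PANC1 were in both lists (100%, 47.8 to 100%), an interval that includes the share of 86.1% among the 251 ELF1 peaks that met no PANC1 peak. JUND peaks outside DU145 ETS1 were many, at 788 in neither list, and 1 of them met a PANC1 ETS1 peak.

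A few shared peaks met several of the other lists. The same counts over the DU145 ETS1 lists were not computed. Whether factors were met together more often than their separate shares would give was not tested. No PANC1 peak met all 4 other lists, and 4 met 3 of them, all in both DU145 ETS1 lists. JUND, GABPA and ELK4 were met together on chr1:150551502-150552002, on chr22:39916456-39916955 and on chr7:100033823-100034317. JUND, GABPA and ELF1 were met on chr14:50100776-50101266. A further 16 shared peaks met 2 of the lists, 83 met 1 and 169 met none. Among shared peaks, GABPA and ELK4 occurred together at 9, JUND with GABPA at 7, JUND with ELK4 at 7 and ELK4 with ELF1 at none. These peaks lay outside the stretch, where none of the 76 peaks met more than 1 other list.

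The gene tables at hand are of another genome build (RefSeq on GRCh38.p14), so no peak was assigned to a gene, and only the number of genes per chromosome was used, a comparison chosen after the peaks had been seen. The table holds 443 tRNA genes, of which 155 (35.0%) are on chromosome 6 and 98 on chromosome 1. On chromosome 6, 85.8% of the tRNA genes have another tRNA gene as their neighbour in gene order, against 67.5% overall. Of 77 histone genes recognised by symbol, 55 (71.4%) are on chromosome 6 and 14 on chromosome 1. Protein-coding genes are not concentrated in this way, with 5.24% on chromosome 6.

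Most PANC1 peaks that lacked a DU145 counterpart lay on chromosomes with at least 10 tRNA genes, with 42 of the 83 on chromosome 6 alone. On the 8 chromosomes with at least 10 tRNA genes lay 71 of the 83 peaks in neither list (85.5%), 145 of the 272 in both (53.3%), and 45.5% and 45.8% of the DU145 lists. Of the 41 unmatched peaks outside the stretch, 29 (70.7%) lay on them, and the like share of shared peaks outside it was not computed. Across 24 chromosomes, the number of unmatched peaks and of tRNA genes had Pearson's r of 0.89 and Spearman's rho of 0.815, and for peaks in both lists the values were 0.61 and 0.743. Chromosome 6 weighs heavily, and without it the values were 0.676 and 0.789 for unmatched peaks and 0.639 and 0.719 for shared peaks, beside 0.702 and 0.703 for the first DU145 list. Chromosomes share length and gene content across these counts. Shared peaks followed the number of protein-coding genes with r of 0.848 and rho of 0.812, and unmatched peaks with 0.256 and 0.635. Without chromosome 6 the latter were 0.64 and 0.631. For histone genes and unmatched peaks, r was 0.961 and rho 0.108 over the 24 chromosomes, and 0.359 and -0.0571 without chromosome 6, so that this r rests on that chromosome. Whether single peaks lie at tRNA or histone genes was not tested.

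**Figure D5:**
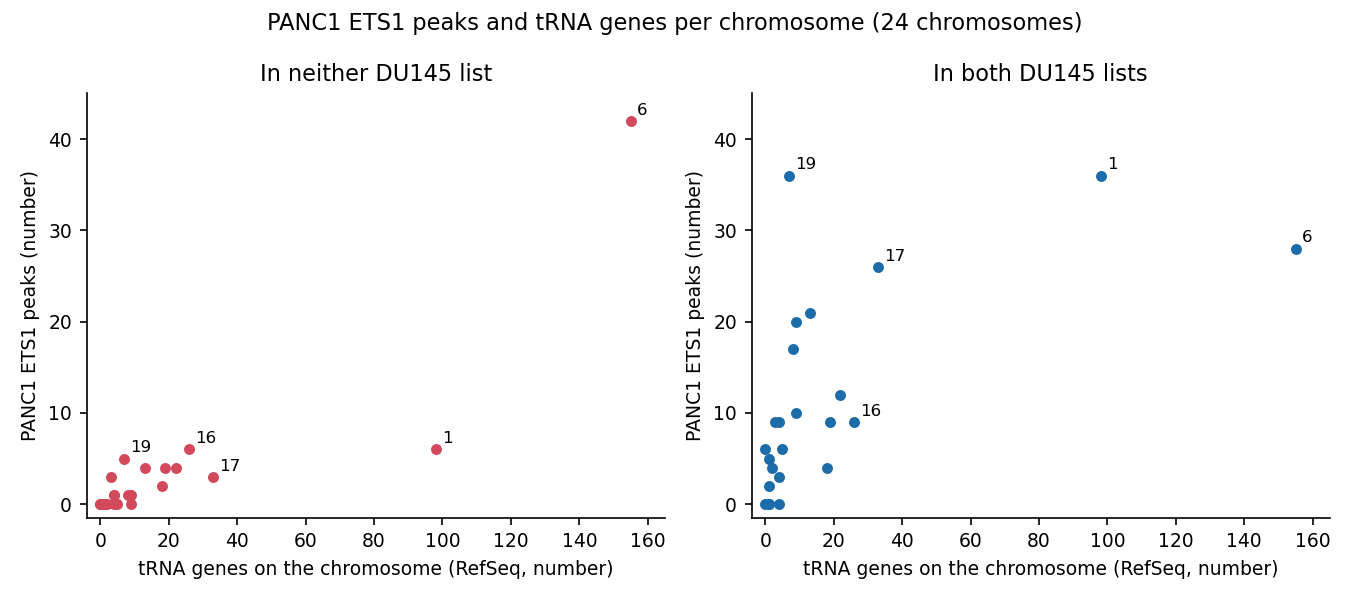
Number of PANC1 ETS1 peaks in neither (left) or both (right) DU145 ETS1 lists against the number of RefSeq tRNA genes, 1 point per chromosome, with chromosomes 1, 6, 16, 17 and 19 labelled. Chromosome 6, with 155 tRNA genes, has 42 unmatched peaks and 28 shared ones, and chromosome 19, with 7 tRNA genes, has 5 and 36.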

How the data were processed

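ChIP-seq peaks of ETS1 in PANC1 and DU145 cells, and of ELF1, ELK4, GABPA and JUND in DU145, were read from 7 lists deposited by the authors, with 1 sample per group and the inputs not analysed here. Each list holds only chromosome, start and end, so the deposited values are positions and no signal, score or count per peak was used. Per the submitters' processing notes, the build is hg19 and Bowtie2 2.0.6 was named without a role. For the peak caller, threshold and background, the sources used here give nothing. A caller's threshold sets the length of each list and so every share.

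Overlaps were computed in Python 3.11.15 using pandas 2.3.3, NumPy 2.4.6 and SciPy 1.17.1, with figures made in Matplotlib 3.10.9. Peaks sharing at least 1 bp were counted as overlapping. Shares carry exact 95% Clopper-Pearson intervals, and no p-value was computed, because peaks of 1 sample are not replicates. The classing step was tested on simulated data, with 20 of 20 trials of 60 peaks right. Positions are 1-based. Peaks were named by rule: runs of at least 3 peaks with gaps under 20 kb, the 10 unmatched peaks farthest from DU145 ETS1 outside the stretch, and shared peaks that met at least 3 other lists. Others named (near misses, peaks of chromosome 6, the run near NEAT1) were chosen after their values were seen. The members, the stretch and the lists were chosen with earlier results of these data known. Peak sequences and gene positions need an hg19 genome and were not used here.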

Additional observations from a re-analysis of the deposited data

How the results depend on the processing

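The share of PANC1 peaks in both DU145 ETS1 lists was lower in the chromosome 6 stretch than outside it under the main setting and the 6 alternatives that changed how peaks were matched or merged. Sizes moved with how overlap was counted. A share is called moved here when it left the 95% interval of the main setting. Of 120 alternative shares, 80 stayed inside it, 8 of them from the wider stretch named below, and 40 moved. When 50% of the shorter interval had to be covered, 54.3% of all peaks and 61.0% of those outside the stretch were in both lists. With centres within 200 bp, the share in both was 30.6% of all peaks, 10.5% in the stretch and 35.1% outside. The share in neither was then 41.6%, 71.1% and 34.8%, JUND was met by 9.6% of shared peaks, and PANC1 met 1.66% and 2.13% of the DU145 lists. With 500 bp intervals around centres, 57.5% of all peaks and 65.5% outside the stretch were in both, and 24.7% and 16.8% in neither. With the earlier 50% of the DU145 lines, 52.1% of all peaks and 59.8% outside were in both. The share in neither was 34.7% of all, 71.1% in the stretch and 26.4% outside, and PANC1 met 4.91% and 4.90% of the shortened lists. With PANC1 peaks under 5 kb apart merged, 72.1% of sites and 80.1% outside the stretch were in both. Without the stretch, 75.4% of peaks were in both and 12.3% in neither. Runs of at least 3 peaks fell from 21 to 8 when neighbours had to lie under 5 kb apart, since fewer peaks can then be joined, and were 25 at under 100 kb. A wider stretch, from 25 to 34 Mb, held the same peaks, so its 8 shares repeat the main ones. For the other moved values, the cause was not tested. The planned comparisons by transcription start and by motif were not run, since they need an hg19 annotation and genome. No paired analysis was possible because each group has 1 sample. Depth is unknown for every list, so an unmatched peak was not listed in DU145, which does not show that ETS1 was absent there.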
